A study of Mus musculus with 36 samples.

Results

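The cell cycle transcripts described here come from 48 mouse genes that dividing cells switch on at the passage from G1 to S phase, in S phase, and in G2 and mitosis. They were taken as a list of symbols and not by their values, and all 48 were matched to an Ensembl identifier among the 52636 genes listed in each library. By role they are 5 G1/S regulators, 9 genes of origin licensing and the replicative helicase, 7 genes of DNA synthesis, nucleotide supply and chromatin copying, 13 mitotic regulators, and 14 genes of the spindle, the kinetochore and chromosome structure. By phase they are 5 G1/S, 16 S and 27 G2/M genes. Their transcripts were most abundant as a set in organoids grown in complete media + IgG, and the set was lower in organoids given medium conditioned by quiescent or by senescent fibroblasts or the ligand Wnt5a. No single gene of the 48 passed an adjusted p under 0.05 in the main test with quiescent medium, or between senescent and quiescent medium. The shifts were small. The mean level of a gene in its highest group of libraries was between 1.09 and 1.80 times that in its lowest group, with a median of 1.34.

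A dividing cell licenses its replication origins by loading the MCM helicase, copies its DNA in S phase, and separates the copies on the mitotic spindle. E2F transcription factors switch on the licensing and DNA synthesis genes at the G1/S border, while a later wave that includes Foxm1 and the MuvB complex switches on the G2/M genes, whose products bring the cell into mitosis under Cdk1 and out of it through the anaphase-promoting complex. In the intestinal crypt the stem cells at the base and the transit-amplifying cells above them divide, whereas enterocytes and the secretory cells have left the cycle.

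Organoids were established from jejunum crypts of C57BL/6 mice and cultured in IntestiCult, which the study calls complete media; the age of these mice is not given in the sources used here. RNA of 36 cultures was sequenced, 6 libraries for each of 6 groups: IgG was given in complete media, in QCM, in SCM and together with Wnt5a, and anti-Ptk7 was given in SCM and together with Wnt5a. For QCM and SCM, mouse embryonic fibroblasts that were quiescent or senescent conditioned a serum-free medium, which was concentrated and mixed into IntestiCult, while Wnt5a, a ligand of noncanonical Wnt signaling, was added to complete media. Each culture thus held control IgG or an antibody against Ptk7, a transmembrane pseudokinase and Wnt co-receptor. The labels do not say whether X-ray or doxorubicin had made the fibroblasts senescent. Libraries with the antibody in complete media or in QCM were not analysed here, so the effect of the antibody without SCM or Wnt5a cannot be told apart from its effect with them. The series' design names 6 mice, but no label ties a replicate number to a mouse, so that p-values measure only the spread between these libraries.

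The libraries held between 9581589 and 21029769 counts, of which between 57662 and 149143 fell on the 48 genes, and the complete media libraries were the shallowest group, with a median of 12195932 counts. Epithelial markers were abundant in every library, whereas the summed level of 8 fibroblast markers stayed at or below 1.43 CPM, the counts of a gene per 1000000 counts of its library after TMM scaling, with Col3a1, Dcn and Thy1 at 0 throughout, and that of 5 immune cell markers stayed at or below 3.88 CPM. Replicates 1 and 5 of Wnt5a + anti-Ptk7 stood apart, as described with the levels. For anti-Ptk7 in Wnt5a, the medians of the 48 genes and the genes past the test are given with and without them. Other results of this group, such as its mean levels, the F-test and the marker tests, include them. In bulk RNA, fewer dividing cells and less RNA per dividing cell cannot be told apart. The libraries were made with a kit that does not mark strand, so reads where exons overlap another gene cannot be assigned. Such overlaps were annotated for 16 of the 48 genes: Ccnd1, Ccne2, E2f8, Mcm7, Gins2, Tk1, Ccna2, Plk1, Foxm1, Cdc20, Ube2c, Top2a, Cdca8, Kif20a, Nusap1 and Prc1. The 50-base words of a gene's transcripts, UTRs included, were searched for in transcripts of other genes, whether overlapping or copied elsewhere. The study states that reads within coding sequences were counted, yet the pseudogene Pcna-ps2 had counts in every library. Gins2 shared 70.3% of its words with Gse1, Kif20a 27.3% with Cdc23, Ccnd1 27.2% with LTO1 and Mcm7 26.1% with Ap4m1, Cops6 and Gm5487. Besides Ccnb1 and Pcna, described with their pseudogenes, the next were Prc1 with 21.01%, Uhrf1 with 17.9%, Ccne2 with 16.1% and Ube2c with 15.99%, and the others shared at most 12.8%.

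The 48 genes together took 0.820% ± 0.0230 (SD, n = 6) of all counts in complete media + IgG, with libraries between 0.793% and 0.856%. The share was 0.749% ± 0.0226 in QCM + IgG, 0.699% ± 0.0256 in SCM + IgG, 0.706% ± 0.0213 in SCM + anti-Ptk7, 0.695% ± 0.0466 in Wnt5a + IgG and 0.633% ± 0.0953 in Wnt5a + anti-Ptk7. Each complete media library lay above each of the 30 libraries of the other groups, the highest of which was a QCM + IgG library at 0.786%. In Wnt5a + anti-Ptk7, replicate 1 at 0.472% and replicate 5 at 0.563% lay below the lowest library of any other group, 0.633%, while the other 4 lay between 0.664% and 0.716%.

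**Figure D1:**
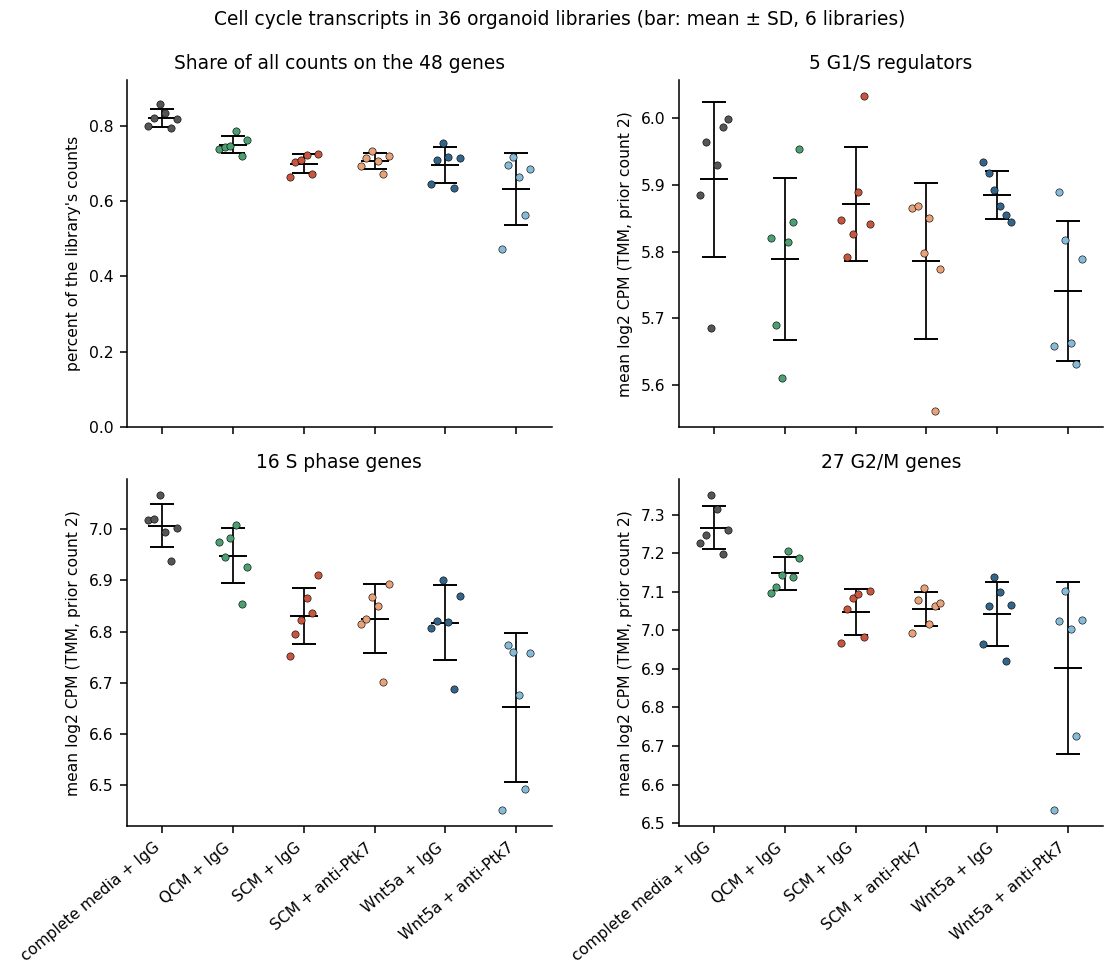
Share of all counts that fell on the 48 genes (percent, axis from 0) and the mean log2 CPM of the 5 G1/S, 16 S and 27 G2/M genes (axes not from 0) in each of 36 libraries; the horizontal axis gives the group, points are libraries and bars the mean ± SD of 6. The G2/M level of complete media + IgG reaches 7.35, that of SCM + IgG no more than 7.10 and that of Wnt5a + IgG no more than 7.14, and 2 Wnt5a + anti-Ptk7 libraries lie lowest in the share of counts.

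On the log2 CPM scale, averaged over the genes after TMM scaling, the G2/M genes stood at 7.27 ± 0.056 in complete media + IgG. Their mean difference from complete media was -0.12 in QCM + IgG, -0.22 in SCM + IgG, -0.21 in SCM + anti-Ptk7, -0.22 in Wnt5a + IgG and -0.36 in Wnt5a + anti-Ptk7. The S phase genes stood at 7.01 ± 0.042 in complete media, with differences of -0.06, -0.18, -0.18, -0.19 and -0.35 in the same order. Of these groups, QCM + IgG overlapped complete media in both phases, while SCM + IgG and Wnt5a + IgG lay below it in every library. The 5 G1/S regulators differed by -0.12, -0.04, -0.12, -0.02 and -0.17 and overlapped complete media in every group. Over all 48 genes the difference of Wnt5a + anti-Ptk7 was -0.34, and its libraries ranged from -0.62 in replicate 1 and -0.50 in replicate 5 to -0.18 in replicate 3.

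Asked once over the 6 groups, 28 of the 48 genes differed in an F-test of edgeR's quasi-likelihood model at an adjusted p under 0.05, beside 39.5% of all genes tested. The group with the highest mean was complete media + IgG for 30 genes, QCM + IgG for 10, SCM + IgG for 4, Wnt5a + IgG for 3 and SCM + anti-Ptk7 for 1. The group with the lowest mean was Wnt5a + anti-Ptk7 for 26. Per kilobase of coding sequence, over all 36 libraries, the level ranged from 389 CPM for Birc5, the inhibitor of apoptosis survivin that also serves in the chromosomal passenger complex, to 9.42 CPM for Cenpf, a large kinetochore protein. Per kilobase of exon Cdc20 was highest at 105 CPM, Birc5 stood at 50.7 and Cenpf was lowest at 5.55. Within the other roles the extremes per kilobase of coding sequence were 350.5 CPM for Ube2c, the E2 enzyme of the anaphase-promoting complex, and 18.8 for Ttk, a spindle checkpoint kinase. Rrm2, the small subunit of ribonucleotide reductase, reached 171 beside 18.5 for Pcna. Mcm6, a helicase subunit, reached 162 beside 18.3 for Cdc6, a loader of that helicase. Among the G1/S regulators, cyclin D1 (Ccnd1) reached 142 and E2f8, an atypical E2F repressor, 23.9.

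The promoters were searched for elements known from the 2 transcription waves, and 6 of them are shown because the results below turn on these genes: Cdk1, Cenpa, Cdc20 and Kif23 for G2/M and Mcm7 and Mcm3 for S phase. Sequences are RefSeq's for GRCm38.p6, from 120 bases before to 30 bases after the annotated start, 5' to 3' on the strand of the gene, with matches on either strand in capitals: CCAAT (the NF-Y box), TTTGAA (the CHR element), TTTAAA (a variant of it), and the E2F site as TTTCCCGC, TTTGGCGC, TTTGCCGC or TTTCGCGC. In Mcm7, of whose 2 annotated starts the first is shown, an E2F match and a CCAAT match overlap in the last capitals.
Cdk1 (ENSMUSG00000019942), chr10:69352883-69353032, minus strand: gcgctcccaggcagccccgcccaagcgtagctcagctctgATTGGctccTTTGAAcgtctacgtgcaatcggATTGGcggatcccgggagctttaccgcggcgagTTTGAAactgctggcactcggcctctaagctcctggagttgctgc
Cenpa (ENSMUSG00000029177), chr5:30666766-30666915, plus strand: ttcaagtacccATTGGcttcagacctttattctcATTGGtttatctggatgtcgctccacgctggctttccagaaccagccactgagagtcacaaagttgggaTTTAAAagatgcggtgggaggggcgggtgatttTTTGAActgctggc
Cdc20 (ENSMUSG00000006398), chr4:118437314-118437463, minus strand: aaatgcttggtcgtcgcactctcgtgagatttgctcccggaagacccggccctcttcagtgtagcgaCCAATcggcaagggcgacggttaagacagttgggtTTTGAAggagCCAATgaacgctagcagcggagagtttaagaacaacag
Kif23 (ENSMUSG00000032254), chr9:61946770-61946919, minus strand: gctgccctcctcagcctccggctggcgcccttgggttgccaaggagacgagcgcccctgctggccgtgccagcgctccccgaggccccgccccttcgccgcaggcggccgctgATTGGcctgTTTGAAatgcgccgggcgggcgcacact
Mcm7 (ENSMUSG00000029730), chr5:138171854-138172003, minus strand: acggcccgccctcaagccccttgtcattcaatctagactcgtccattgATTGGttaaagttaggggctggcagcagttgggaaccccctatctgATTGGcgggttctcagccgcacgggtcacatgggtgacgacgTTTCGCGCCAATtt
Mcm3 (ENSMUSG00000041859), chr1:20820283-20820432, minus strand: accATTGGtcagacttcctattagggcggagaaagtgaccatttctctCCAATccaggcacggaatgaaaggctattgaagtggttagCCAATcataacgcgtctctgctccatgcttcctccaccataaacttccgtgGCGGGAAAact

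Promoters of 300 bases, from 250 before to 50 after the start, were held for 39 of the 48 genes and for 27025 genes in all, the genes without one being Ccnd1, Ccne2, Mcm4, Gins2, Ccna2, Aurkb, Foxm1, Tpx2 and Kif20a. Of the 22 G2/M promoters, 20 held CCAAT (90.9%) and 17 held TTTGAA (77.3%), and the same 17 held both. Among all promoters the shares were 41.1%, 20.2% and 7.97%. The variant TTTAAA was in 7 of the 22 and in 14.9% of all promoters. Either form was in 20 of the 22 G2/M promoters (90.9%), in 5 of the 14 S phase promoters (35.7%) and in 30.6% of all promoters, while TTTGAA was in 1 of the 14 (7.14%). E2f1, Tyms, Chaf1b and Nusap1, an assembly factor of the spindle, had no match of any kind. An E2F site was in 7 of the 14 S phase promoters (50%), in 1 of the 22 G2/M promoters (4.55%) and in 2.6% of all promoters, and 6 of the 7 S phase promoters were those of licensing and helicase genes. Kif23, the G2/M gene whose transcript rose with Wnt5a, also held CCAAT and TTTGAA. A match is a run of letters and not a measured binding site.

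**Figure D2:**
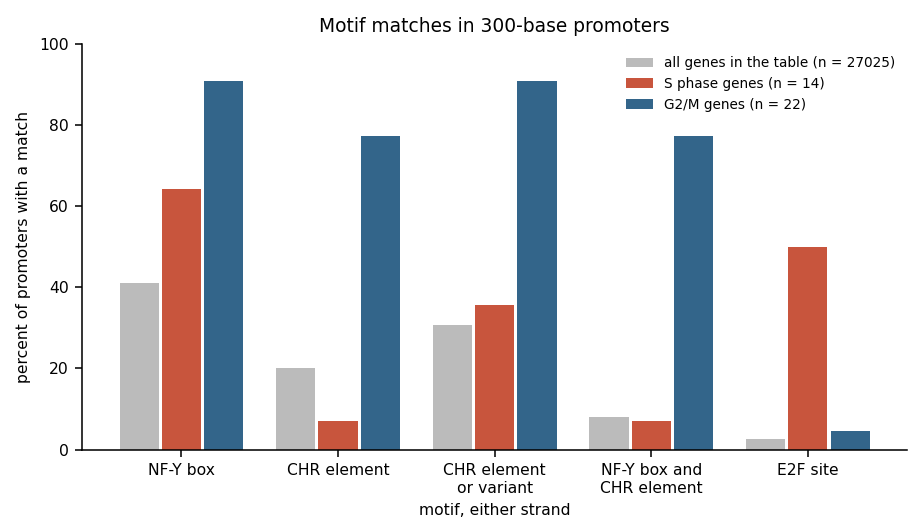
Percent of 300-base promoters (vertical axis, from 0) with a match to the NF-Y box, the CHR element, the CHR element or its variant, the NF-Y box and CHR element, or an E2F site on either strand (horizontal axis), for all 27025 genes in grey, 14 S phase genes in red and 22 G2/M genes in blue. The CHR element is in 77.3% of the G2/M promoters and 7.14% of the S phase promoters, it or its variant in 90.9% and 35.7%, and the E2F site in 4.55% and 50%.

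SCM + IgG was compared with complete media + IgG to ask what medium from senescent fibroblasts does to the organoids. None of the 48 genes passed an adjusted p under 0.05 together with a fold change over 1.5 in edgeR's quasi-likelihood test, beside 6.08% of all genes tested. At an adjusted p under 0.05 alone, 15 genes fell and none rose, beside 4.45% of all genes that fell and 7.43% that rose, and 27 passed an unadjusted p under 0.05, as did 3825 of the 15497 genes tested. The 15 were 7 of the 9 licensing and helicase genes (Mcm2, Mcm3, Mcm4, Mcm5, Mcm6, Mcm7 and Cdt1), 2 of the 7 synthesis genes (Rrm2 and the chromatin assembly subunit Chaf1b), 3 of the 13 mitotic regulators (Plk1, Aurkb and Foxm1), 3 of the 14 spindle genes (Kif11, Kif20a and Hmmr) and none of the 5 G1/S regulators. With no filter on low counts 9 of the 15 remained, and Mcm4, Mcm5, Mcm6, Cdt1, Chaf1b and Aurkb did not pass (adjusted p at most 0.0936). The median log2 fold change was -0.19 over the 48 genes and 0.01 over all genes tested, and 43 of the 48 lay below 0, while 51.0% of all genes lay above 0. In 13 genes each SCM + IgG library lay below each complete media library, which holds for 2.53% of all genes.

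All 6 genes of the MCM helicase ring fell. Mcm7 had a lowest, median and highest level of 101, 107 and 121 CPM in complete media + IgG and of 67.2, 85.8 and 88.5 in SCM + IgG, without overlap. Its log2 fold change was -0.41 (SE 0.08, adjusted p = 0.00103). Mcm3, chosen after its values were seen, had means of 304 ± 8.23 and 243 ± 24.4 CPM (± SD, n = 6) in complete media and SCM, also without overlap, with a log2 fold change of -0.32 (SE 0.07, adjusted p = 0.00338). The other helicase subunits changed by between -0.18 (Mcm6) and -0.28 (Mcm2), of which Mcm5 no longer passed without complete media replicate 1 (adjusted p = 0.0512) and Mcm6 without SCM + IgG replicate 1 or complete media replicate 3 (0.0784 at most). Cdt1, which loads the helicase with Cdc6, changed by -0.25 and no longer passed without any of 7 of the 12 libraries (adjusted p at most 0.0956). Cdc6 itself pointed the other way at 0.39 (SE 0.13, adjusted p = 0.0503), from 18.8, 27.3 and 32.7 CPM in complete media to 29.1, 36.9 and 39.6 in SCM, with overlap. It was past the threshold without complete media replicate 6 (0.44, adjusted p = 0.0370) and in DESeq2 (0.39, 0.0354).

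Among the G2/M genes, the largest changes were in Foxm1, the transcription factor of the G2/M wave, and Kif20a, a kinesin of cytokinesis. Foxm1 had 87.7, 90.9 and 101 CPM in complete media + IgG and 49.3, 67.6 and 81.2 in SCM + IgG, and its log2 fold change was -0.47 (SE 0.11, adjusted p = 0.00335). Kif20a had 165, 203 and 232 CPM against 132, 146 and 161, and -0.45 (SE 0.08, adjusted p = 0.000381). In both the groups did not overlap. Kif11, the kinesin that pushes spindle poles apart, changed by -0.43 (SE 0.12, adjusted p = 0.0151), with libraries of 112 to 146 CPM and 71.4 to 117 CPM that overlapped. Plk1, the mitotic entry kinase, fell from 222 to 253 CPM to 185 to 206 CPM without overlap, a log2 fold change of -0.28 (adjusted p = 0.0116), and Rrm2 from 249.7 to 270.1 CPM to 175 to 239 CPM, -0.33 (adjusted p = 0.00526). These 5 genes also passed when any 1 of the 12 libraries was left out. Aurkb and Chaf1b, at -0.29 and -0.28, each no longer passed without any of 5 libraries (adjusted p at most 0.0918 and 0.0841).

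Several genes often read as proliferation markers did not pass the test with SCM. Mki67, which codes for the Ki-67 antigen, ranged over 210.0 to 392 CPM in complete media and 222 to 307 CPM in SCM, a log2 fold change of -0.23 with a 95% interval of -0.45 to -0.01 (adjusted p = 0.202). Without complete media replicate 2 it was -0.34 with an adjusted p of 0.0326. Cdk1, the kinase of mitotic entry, stood at -0.12 (interval -0.27 to 0.03) and cyclin B1 (Ccnb1), its partner, at -0.15 (-0.42 to 0.11). E2f8 lay lower in each SCM library than in each complete media library, at 29.2 to 67.6 against 68.0 to 83.0 CPM, but its change of -0.41 (adjusted p = 0.0697) missed the threshold in edgeR's fit of the group means over all libraries. It passed in edgeR without SCM + IgG replicate 5 (0.0482) and with a replicate block (0.0115), in DESeq2 (0.0442) and in voom with quantile normalization (0.0358). Ccnd1 stood at 0.41 with an interval of 0.02 to 0.80, its SCM libraries ranging from 109.8 to 231 CPM.

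Wnt5a + IgG was compared with the same complete media + IgG libraries, so that the results with SCM and with Wnt5a share their controls and are given side by side. Again none of the 48 genes passed both thresholds, beside 10.2% of all genes tested. At an adjusted p under 0.05 alone, 21 genes fell and 1 rose, beside 9.40% of all genes that fell and 12.5% that rose, and 28 passed an unadjusted p under 0.05, as did 5133 of all genes. The mitotic regulators held 8 of the 21 (Ccnb2, Cdk1, Plk1, Aurka, Aurkb, Bub1b, Cdc20 and Ube2c) and the spindle genes 5 (Birc5, Cdca8, Kif20a, Cenpa and Hmmr). The synthesis genes held 4 (Rrm2, Tyms, Tk1 and Chaf1b), the licensing genes 4 (Mcm5, Mcm7, Cdt1 and Gins2), and the G1/S regulators none. The median log2 fold change was -0.24 over the 48 genes and 0.01 over all genes tested, and 42 of the 48 lay below 0, while 50.6% of all genes lay above 0. Each Wnt5a + IgG library lay below each complete media library in 11 genes and above it in 1, which holds for 4.81% and 6.85% of all genes.

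The largest change was in Cenpa, the histone H3 variant that marks centromeres. Its lowest, median and highest levels were 135, 143 and 188 CPM in complete media + IgG and 81.6, 108 and 117 in Wnt5a + IgG. The groups did not overlap, and the log2 fold change was -0.55 (SE 0.11, adjusted p = 0.000287). It passed the fold change cutoff of 1.5 as well without complete media replicate 3 or without Wnt5a + IgG replicate 4 or 6, one at a time, reaching -0.60 without Wnt5a + IgG replicate 6, and also with scaling by library size alone (-0.59). Birc5 had 182, 202 and 213 CPM against 122, 157 and 169, again without overlap, a log2 fold change of -0.41 (SE 0.11, adjusted p = 0.00496). Aurkb, the kinase of the chromosomal passenger complex, which was chosen after its values were seen, changed by -0.41 (adjusted p = 0.00141), and Cdca8, its borealin subunit, by -0.25 (adjusted p = 0.0203). Incenp, the scaffold of that complex and not among the 48 genes, stood at -0.20 (adjusted p = 0.111) and did not pass. Cdca8 no longer passed without complete media replicate 1 or Wnt5a + IgG replicate 5 (adjusted p at most 0.0792), and Hmmr without the latter (0.0612).

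Of the 13 mitotic regulators, 8 fell with Wnt5a, and Ccnb1, Ccna2, Foxm1, Bub1 and Ttk did not pass. Cdk1 had 264, 284 and 302 CPM in complete media and 203, 218 and 253 with Wnt5a, and Aurka, the spindle pole kinase, had 176, 195 and 202 CPM and 129.6, 141 and 160.3. Neither overlapped, and the log2 fold changes were -0.34 (SE 0.08, adjusted p = 0.00177) and -0.42 (SE 0.09, adjusted p = 0.001). Cdc20, the activator of the anaphase-promoting complex, ranged over 218 to 255 CPM and 167 to 223 CPM, which overlapped, and fell by 0.30 on the log2 scale (adjusted p = 0.0103). Ube2c, at -0.26, no longer passed without complete media replicate 1 or without Wnt5a + IgG replicate 1 or 5 (adjusted p at most 0.109), nor did Tyms, the thymidylate synthase, pass without complete media replicate 2 or either of those Wnt5a libraries (0.0783). Cdt1, Chaf1b, the checkpoint kinase Bub1b and the cyclin Ccnb2 each no longer passed when any 1 of 4 or 5 libraries was left out. In nucleotide supply, thymidine kinase (Tk1), named after its values were seen, fell from 67.2, 73.2 and 87.4 CPM to 40.2, 52.3 and 64.0, without overlap, a log2 fold change of -0.50 (SE 0.11, adjusted p = 0.00142). With SCM the same gene stood at -0.14 (adjusted p = 0.472), and whether Wnt5a and SCM differ in it was not tested.

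Of the helicase genes, only 2 of the 6 MCM subunits passed the test with Wnt5a. Mcm7 fell by 0.45 on the log2 scale (101 to 121 CPM to 71.2 to 86.6 CPM, no overlap, adjusted p = 0.000189) and Mcm5 by 0.32 (adjusted p = 0.00205). Mcm4, with 216, 234 and 251 CPM in complete media and 215, 230.5 and 252 with Wnt5a, stood at -0.01 with an interval of -0.14 to 0.12. Mcm6 at -0.08, Mcm2 at -0.17 and Mcm3 at -0.20 did not pass either. Gins2, a subunit of the active helicase, was at -0.27 (adjusted p = 0.0497), and no longer passed without any of 7 of the 12 libraries (adjusted p at most 0.152). Mki67 stood at -0.01 (interval -0.23 to 0.21), Foxm1 at -0.18 (-0.39 to 0.03), Ccnb1 at -0.23 (-0.50 to 0.04) and Ccnd1 at 0.40 (0.01 to 0.79), none of them past the threshold. In a fit of only the groups compared, Ccnd1 (0.39, adjusted p = 0.0415) and E2f8 (-0.31, adjusted p = 0.0206) passed it.

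Kif23, a kinesin of the central spindle, was the one gene that rose, and it was named after its values were seen. Its levels were 126, 134 and 145 CPM in complete media and 148, 156 and 231 with Wnt5a, each Wnt5a library above each complete media library. The log2 fold change was 0.32 (SE 0.08, adjusted p = 0.00468). The highest Wnt5a library, replicate 1, stood far above the next at 169 CPM, but the gene passed without each library in turn (largest adjusted p = 0.0354). In SCM it stood at 0.06 and in Wnt5a + anti-Ptk7 its libraries ranged from 139 to 153 CPM.

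**Figure D3:**
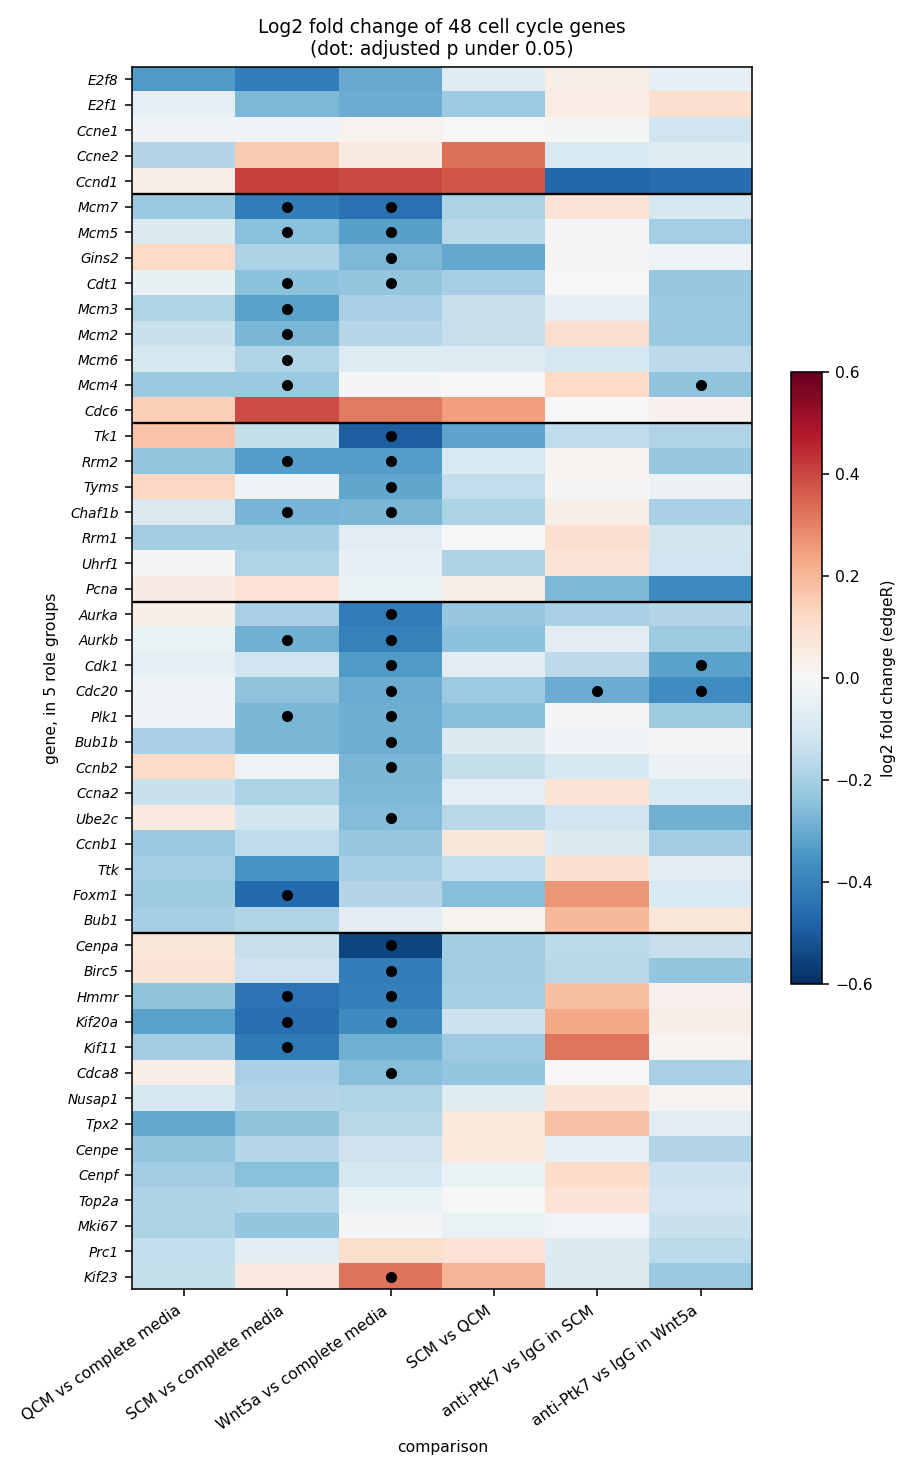
Log2 fold change (colour, blue lower and red higher in the first-named group, scale -0.6 to 0.6) of each of the 48 genes (rows, in 5 role groups between lines) in 6 comparisons (columns); a dot marks an adjusted p under 0.05. Dots fill 15 rows with SCM and 22 with Wnt5a, none with QCM or between SCM and QCM, and 1 and 3 with anti-Ptk7.

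**Figure D4:**
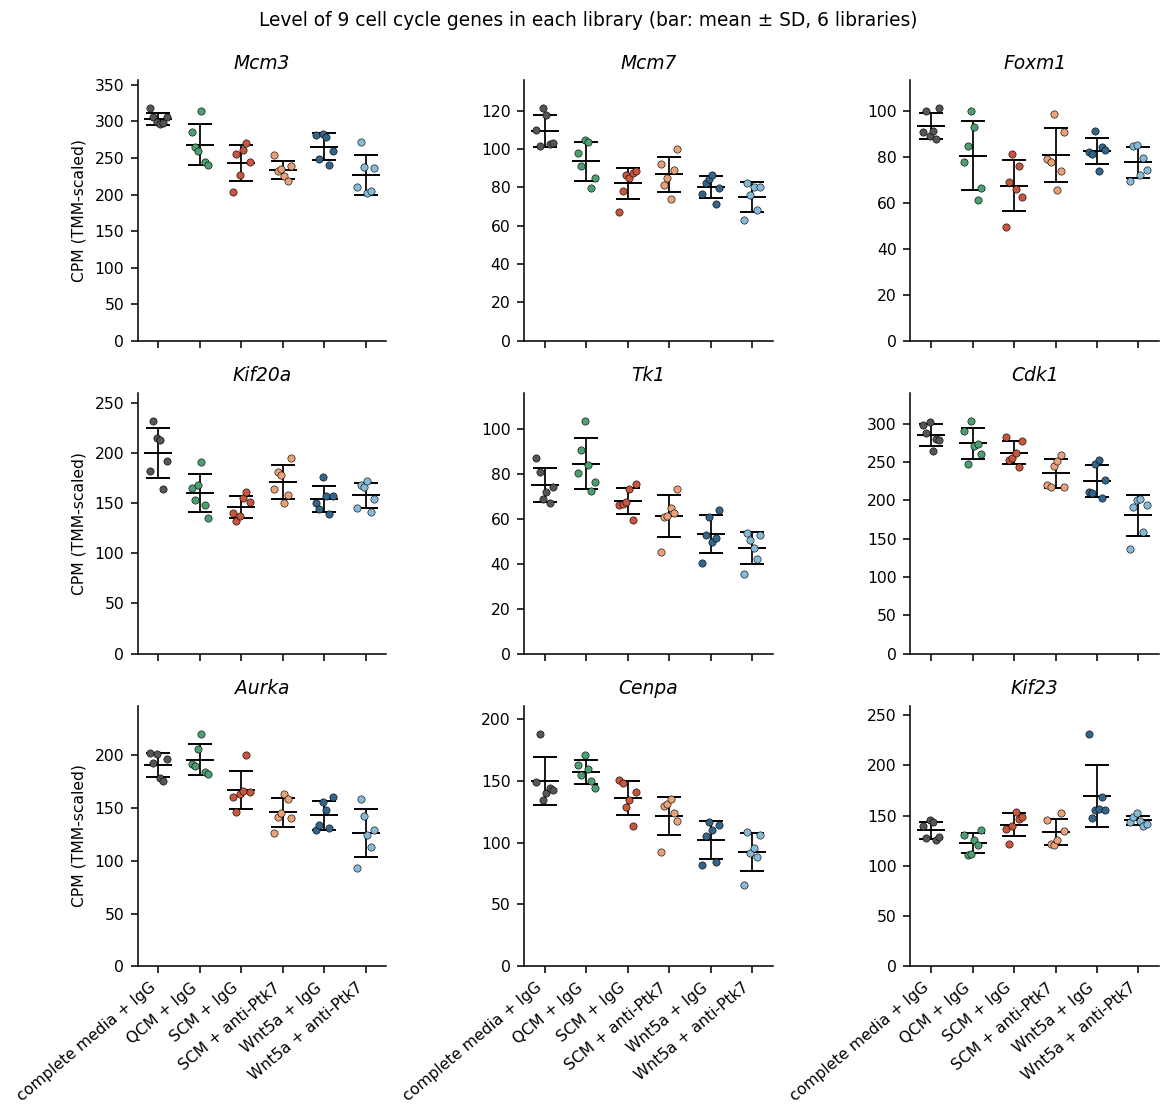
CPM after TMM scaling (vertical axes, from 0) of 9 genes in each of 36 libraries by group (horizontal axis); points are libraries and bars the mean ± SD of 6. Mcm7 lies below its complete media libraries in both SCM + IgG and Wnt5a + IgG, Foxm1 in SCM + IgG, and Kif23 lies above them in Wnt5a + IgG.

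Levels of cell type markers differed in the same comparisons, and no marker of the lists given here was at 0 in all libraries of a group. The summed level of 8 enterocyte markers was 1923 to 2652 CPM in complete media + IgG, 2780 to 3325 CPM in SCM + IgG and 2231 to 3045 CPM in Wnt5a + IgG. At an adjusted p under 0.05, 5 of the 8 rose with SCM and 4 with Wnt5a, beside 7.43% and 12.5% of all genes. That of 6 crypt base stem cell markers was 1871 to 2488 CPM, 1172 to 2137 CPM and 1076 to 2223 CPM, and in both comparisons Smoc2 and Lrig1 fell and Ascl2 rose, beside 4.45% and 9.40% of all genes that fell and 7.43% and 12.5% that rose. The sum of 5 markers of the whole epithelium was 4938 to 6619 CPM in complete media, 7385 to 11246 CPM with SCM and 8470 to 16123 CPM with Wnt5a, and 4 of the 5 rose with SCM and all 5 with Wnt5a, beside 7.43% and 12.5% of all genes. Of the secretory cells, 5 Paneth cell markers summed to 1463 to 1735 CPM in complete media, 1587 to 2218 CPM with SCM and 879.8 to 1792 CPM with Wnt5a. Ang4 and Mmp7 rose past both thresholds in both comparisons, beside 6.08% and 10.2% of all genes past both in either direction, and Lyz1 fell with Wnt5a (-0.35, adjusted p = 0.0403). The 5 enteroendocrine markers summed to 442 to 590.0 CPM, 385 to 549 CPM and 538 to 636 CPM, of which Neurog3 fell in both (-0.83, adjusted p = 0.00543 and -1.33, adjusted p = 1.38e-05). The 4 tuft cell markers summed to 6.93 to 12.1 CPM in complete media, 8.92 to 15.05 CPM with SCM and 19.5 to 36.1 CPM with Wnt5a, where 3 of the 4 rose, beside 12.5% of all genes. The 5 goblet cell markers summed to 1322 to 1851 CPM, 1050 to 1819 CPM and 1076 to 1984 CPM, and none passed the test. Their part in the lower cell cycle transcripts was not tested.

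QCM + IgG, the control for conditioned medium as such, was compared with complete media + IgG as well. None of the 48 genes passed an adjusted p under 0.05, with or without the fold change cutoff, in edgeR's fit of the 6 group means or in voom with either normalization, while 2 passed in DESeq2, Kif20a (adjusted p = 0.0110) and Mcm4 (0.0209), at any fold change. In edgeR the background was 0.374% of all genes with the cutoff and 0.658% without it, and in DESeq2 it was 1.49% without it. At an unadjusted p under 0.05, 9 of the 48 passed in edgeR, all lower, beside 1858 of all genes. The median log2 fold change was -0.12 over the 48 and 0.02 over all genes. Kif20a had 135, 159 and 191 CPM with QCM beside 165, 203 and 232 in complete media, a log2 fold change of -0.32 (SE 0.08, adjusted p = 0.0681) that became -0.40 (0.0183) without QCM + IgG replicate 4. Mcm4 with 182 to 222 CPM stood at -0.22 (adjusted p = 0.105), and at -0.28 (0.0307) without QCM + IgG replicate 6, and 1 gene also passed without complete media replicate 1 or 5. Tpx2, which activates Aurka on the spindle, stood at -0.31 (adjusted p = 0.147). Rrm2 was the only gene whose QCM libraries, 199 to 234 CPM, all lay below complete media, which holds for 0.361% of all genes. Of the cell type markers, 3 of 8 enterocyte genes (Alpi, Apoa4 and Fabp1) and 1 of 5 Paneth cell genes (Ang4) rose with QCM, with sums of 2455 to 2956 CPM and 1695 to 2408 CPM, and no gene of the stem cell, goblet, enteroendocrine, tuft and whole epithelium lists passed. Their part in the lower values was not tested.

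The contrast of SCM + IgG with QCM + IgG asks what senescence adds to fibroblast medium. It shares its libraries with the comparisons above. No gene of the 48 passed in edgeR's fit of the 6 group means or in voom at any fold change, beside 0.903% of all genes with the fold change cutoff and 1.72% without it in edgeR. Plk1 passed in DESeq2 (adjusted p = 0.0219), where 3.9% of all genes passed at any fold change. In edgeR 13 passed an unadjusted p under 0.05, as did 2633 of all genes. The median was -0.13 beside -0.01 over all genes, and -0.065 without QCM + IgG replicate 4, and 35 of the 48 lay below 0, while 48.6% of all genes lay above 0. Plk1 had 204, 241 and 261 CPM with QCM and 185, 196 and 206 with SCM, which just overlapped, and a log2 fold change of -0.26 (SE 0.07, adjusted p = 0.0602). Without QCM + IgG replicate 5 it was -0.29 (adjusted p = 0.0352), and without QCM + IgG replicate 6, 2 genes passed. Gins2 stood at -0.31 (adjusted p = 0.0994) and Cdca8 at -0.23 (adjusted p = 0.119). Birc5 alone did not overlap, with 197 to 227 CPM against 165 to 192 CPM, beside 1.10% of all genes that lay lower in this way. The intervals for Mki67 (-0.26 to 0.18), Cdk1 (-0.22 to 0.09) and Ccnb1 (-0.20 to 0.34) included 0.

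Anti-Ptk7 was compared with IgG within SCM and within Wnt5a to ask which changes depend on Ptk7. In SCM the 48 genes had a median log2 fold change of -0.003 beside 0.00 over all genes and 25 of 48 below 0, while 50.3% of all genes lay above 0. None passed both thresholds, beside 1.23% of all genes. At an adjusted p under 0.05 alone Cdc20 fell, the only one, beside 1.44% of all genes that fell, and 6 passed an unadjusted p under 0.05, as did 2654 of all genes. Cdc20 had 188, 202 and 213 CPM in SCM + IgG and 142, 167 and 173 in SCM + anti-Ptk7, without overlap, which holds for 0.994% of all genes. Its log2 fold change was -0.30 (SE 0.09, adjusted p = 0.0495), and it no longer passed without any 1 of 10 of the 12 libraries (largest adjusted p = 0.0978, without SCM + anti-Ptk7 replicate 1). It also missed the threshold in voom with quantile normalization, the study's method (0.0960), with upper-quartile scaling (0.0641), with library size alone (0.118), with no filter on low counts (0.104), with a length term (0.0579) and in a fit of only the groups compared (0.0607). Kif11 at 0.32 (adjusted p = 0.14), Kif20a at 0.23 (adjusted p = 0.143) and Foxm1 at 0.26 (adjusted p = 0.194) had values above 0 and did not pass. The libraries of Foxm1 ran from 65.6 to 98.3 CPM with the antibody and from 49.3 to 81.2 CPM without it. Ccnd1 stood at -0.47 (interval -0.86 to -0.08, adjusted p = 0.213).

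In Wnt5a the median was -0.14 beside 0.01 over all genes, and 40 of the 48 lay below 0, while 51.0% of all genes lay above 0. No gene passed both thresholds, beside 0.884% of all genes, and at an adjusted p under 0.05 alone Cdc20, Cdk1 and Mcm4 fell, beside 1.52% of all genes that fell. At an unadjusted p under 0.05, 18 passed, as did 2332 of all genes. Cdc20 had 167, 195 and 223 CPM in Wnt5a + IgG and 104, 156 and 173 in Wnt5a + anti-Ptk7, which overlapped, and a log2 fold change of -0.37 (SE 0.09, adjusted p = 0.0124). Cdk1 had 203, 218 and 253 CPM and 136, 192 and 202, without overlap, and -0.32 (SE 0.08, adjusted p = 0.0193). Mcm4 had 215, 230.5 and 252 CPM and 185, 197 and 207, also without overlap, and -0.24 (SE 0.06, adjusted p = 0.0338). The groups of 2 genes of the 48 thus did not overlap, beside 1.43% of all genes that lay lower in this way.

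The 3 genes were tested again without replicates 1 and 5 of Wnt5a + anti-Ptk7, the libraries with the smallest share of cell cycle counts. Without both, a choice made after seeing the data, none of the 3 still passed: Cdc20 stood at -0.25 (adjusted p = 0.0783), Cdk1 at -0.21 (0.132) and Mcm4 at -0.23 (0.0981), nearly its value with all libraries. The median over the 48 genes was then -0.05, beside -0.02 over all genes, and it was -0.092 without replicate 1 alone. In a fit of only the groups compared, none of the 3 passed either, with Cdc20 at -0.38 (adjusted p = 0.135), Cdk1 at -0.32 (0.153) and Mcm4 at -0.24 (0.0818). One at a time, Cdc20 passed without each of the 12 libraries. Cdk1 did not pass without Wnt5a + IgG replicate 4 or without Wnt5a + anti-Ptk7 replicate 5 (largest adjusted p = 0.0700), and Mcm4 without any of 7 (0.0890). For Ccnd1 the values were lower without these libraries. It had 132, 146 and 199 CPM in Wnt5a + IgG and 71.4, 85.6 and 207 in Wnt5a + anti-Ptk7, where replicate 1 was the high library, and its log2 fold change of -0.46 (adjusted p = 0.254) became -0.73 (0.0185) without that replicate and -0.92 (0.00622) without replicates 1 and 5, past both thresholds each time. No difference between the effects of anti-Ptk7 in Wnt5a and in SCM was detected in any of the 48 genes by edgeR's interaction test, nor in voom or DESeq2, beside 0.00% of all genes in edgeR, and 4 passed an unadjusted p under 0.05, as did 602 of all genes. The smallest adjusted p was 0.999. The median of that difference was -0.14 with 40 of the 48 below 0. In a fit of only the groups compared it was -0.15, beside -0.001 over all genes. Without replicates 1 and 5 of Wnt5a + anti-Ptk7 it was -0.032, beside -0.017 over all genes. The 95% interval of the difference was -0.38 to 0.06 for Cdk1 and -0.54 to 0.57 for Ccnd1, so that differences within these intervals are not excluded with 6 libraries a group.

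**Figure D5:**
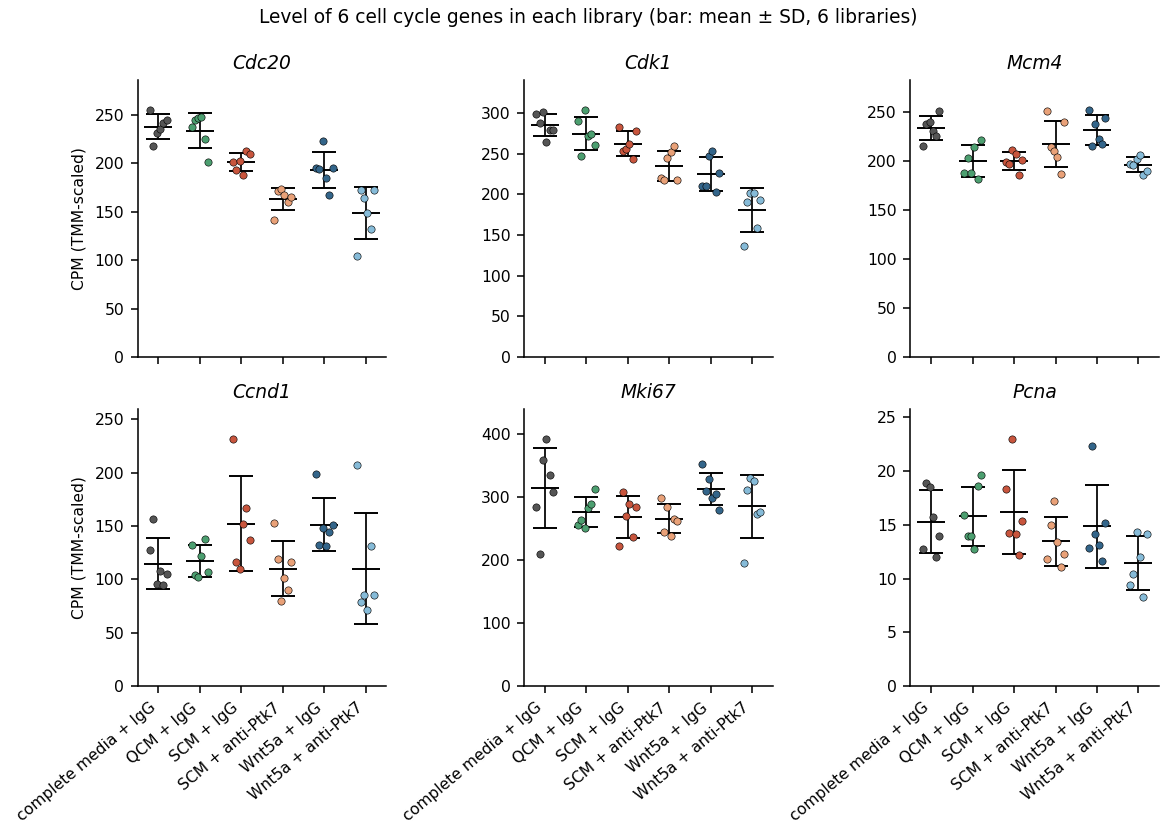
CPM after TMM scaling (vertical axes, from 0) of 6 genes in each of 36 libraries by group (horizontal axis); points are libraries and bars the mean ± SD of 6. Cdc20 lies lower with anti-Ptk7 than with IgG in SCM, at 142 to 173 beside 188 to 213 CPM, and 1 Wnt5a + anti-Ptk7 library has the highest Ccnd1 of its group, 207 CPM.

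With anti-Ptk7, the Paneth cell markers summed to 1107 to 1807 CPM in SCM, beside 1587 to 2218 CPM with IgG, and to 649 to 1414 CPM in Wnt5a, beside 879.8 to 1792 CPM with IgG. Of the 5, Lyz1 passed an adjusted p under 0.05 in both media (-0.54, adjusted p = 0.0133 in SCM and -0.63, adjusted p = 0.00374 in Wnt5a, there past both thresholds), beside 1.44% and 1.52% of all genes that fell. At an unadjusted p under 0.05, 3 of the 5 were lower and Ang4 was higher in SCM, and 4 were lower and Ang4 was higher in Wnt5a, beside 1358 and 1230 of all genes that were lower. The enterocyte gene Alpi fell past both thresholds in both (-0.59, adjusted p = 0.0403 and -0.72, adjusted p = 0.0104), while the 8 enterocyte markers summed to 2596 to 3470 CPM and 2332 to 2799 CPM. No marker of the other lists of epithelial cells passed. The part of these markers in the cell cycle values was not tested.

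Log2 fold change and exon length were related across genes, which share libraries and are no independent replicates. Spearman's rho over the 48 genes and over 12449 protein-coding genes was -0.33 and -0.30 with QCM, -0.048 and -0.11 with SCM, and 0.24 and 0.16 with Wnt5a. It was 0.26 and 0.12 between SCM and QCM, 0.34 and 0.17 with anti-Ptk7 in SCM, and 0.26 and 0.11 with it in Wnt5a. In a fit with a length term, at an adjusted p under 0.05 alone, 15 of the 48 genes fell and 1 rose with SCM, 21 fell and 1 rose with Wnt5a, 3 fell with anti-Ptk7 in Wnt5a, and none passed with QCM, between SCM and QCM or with anti-Ptk7 in SCM. In that fit 12.1% of all genes passed with SCM, 21.3% with Wnt5a and 2.92% with anti-Ptk7 in Wnt5a. The shares were 0.504% with QCM, 2.01% between SCM and QCM and 2.43% with anti-Ptk7 in SCM.

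Pcna, the sliding clamp of DNA synthesis and a common proliferation marker, was counted at a low level. Its mean over the 36 libraries was only 14.5 CPM, and 31.8% of the 50-base words of its transcripts also occur in the pseudogene Pcna-ps2, itself counted at 6.22 CPM or more in every library, so the split of reads between them is uncertain. Its log2 fold changes were 0.05 with QCM, 0.09 with SCM, -0.04 with Wnt5a, -0.27 with anti-Ptk7 in SCM and -0.38 with anti-Ptk7 in Wnt5a, none past the threshold. Ccnb1 shared 40.6% of its words with the pseudogene Ccnb1-ps and 5 further copies, and ranged from 15.4 to 37.7 CPM. It did not pass in any comparison either.

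Other genes of the cell cycle, given as lists chosen with earlier results of these data known, were tested in the same fit. With SCM, 4 of 30 further S phase genes and 4 of 35 further G2/M genes fell at an adjusted p under 0.05 and none rose, beside 4.45% of all genes that fell and 7.43% that rose. With Wnt5a, 11 of the 30 fell, and of the 35 G2/M genes 10 fell and 1 rose, beside 9.40% of all genes that fell and 12.5% that rose. Of 12 G1 cyclins, kinases and E2F factors, 3 fell with SCM, and with Wnt5a 4 fell and 2 rose, beside the same shares. Past the fold change cutoff with Wnt5a, Skp2, the F-box protein that marks the inhibitor p27 for degradation, fell from 56.4 to 64.2 CPM to 20.9 to 45.1 CPM, without overlap, a log2 fold change of -0.79 (adjusted p = 0.000226), and Spc24, a subunit of the Ndc80 kinetochore complex, changed by -0.63 (adjusted p = 0.00188). Myc, the growth-promoting transcription factor, rose by 0.63 (adjusted p = 0.011) with overlapping libraries.

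Of the inhibitors and pocket proteins, 16 of 17 were tested. Cdkn2b, which codes for the kinase inhibitor p15, rose from 15.1 ± 2.91 CPM (mean ± SD, n = 6) in complete media to 25.1 ± 5.20 with SCM (0.73, adjusted p = 0.0147) and 35.4 ± 8.12 with Wnt5a (1.23, adjusted p = 4.1e-05), where no library overlapped complete media. Btg1, an antiproliferative gene, rose by 0.64 with Wnt5a (adjusted p = 0.000764). With SCM 3 of the 16 rose and 1 fell, beside 7.43% and 4.45% of all genes, and with Wnt5a 2 rose and 1 fell, beside 12.5% and 9.40%, so that the list with Wnt5a was near the background. The retinoblastoma gene Rb1 was the only one of these genes past the test with QCM, at 26.1 ± 3.81 CPM beside 40.2 ± 10.2 in complete media (-0.62, adjusted p = 0.0212). None of the 4 lists held a gene past the test between SCM and QCM in edgeR.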

How the data were processed

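Reads were mapped to mm10 by the authors with GSNAP, run through HTSeqGenie, and the deposited files hold counts per Ensembl gene for each library. The study states that reads within coding sequences were counted, yet the files also hold counts for pseudogenes such as Pcna-ps2. The annotation version and the strand setting are not given in the sources used here. The counts were used as deposited. Genes that passed filterByExpr (15497, all 48 cell cycle genes among them) were fitted with edgeR 4.0.16 (R 4.3.3) after TMM scaling (factors 0.908 to 1.03), with a mean for each of the 6 groups, and tested with the quasi-likelihood F-test on all 36 libraries. P-values were adjusted by Benjamini-Hochberg over all genes tested, and a gene was called where the adjusted p lay under 0.05 and the fold change over 1.5. The study used voom in limma with quantile normalization and the same thresholds, which was run as an alternative (limma 3.58.1), as were DESeq2 1.42.0, other scalings and filters, a replicate block, fits of only the groups compared, and each library left out in turn. A length offset, leaving out replicates 1 and 5 of Wnt5a + anti-Ptk7 together, and counts at any fold change as a result of their own were chosen after seeing the data. Intervals are 95% and cover the spread between these libraries. The closest pair of replicates differed by 7.28 per gene in a chi-square test of counts, so that none of the 90 pairs was a repeated library.

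Named genes were Mki67, Pcna, Ccnd1, Cdk1 and Ccnb1, the called genes or, with fewer than 3 of them, the 3 with the smallest adjusted p in a comparison, and the highest and lowest level per length in each role, besides genes said to be chosen after their values were seen and those counted in lists. The genes, lists and tests were chosen with earlier results of these data known. Gene symbols and lengths came from the reference annotation, 50-base words from its transcripts, and promoters from RefSeq (GRCm38.p6). Scripts were tested on simulated data. Figures were drawn with matplotlib 3.10.9 in Python 3.11.15.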

Additional observations from a re-analysis of the deposited data

Results flagged for a closer look

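In each group of 6 libraries, the level of each of the 48 genes and of the sets was searched for a highest or lowest library that lay far from the rest by Dixon's test at its 95% critical value. Of 318 such groups 16 were found, and chance gives about 1 in 20. The mean log2 CPM of the G1/S regulators was lowest in SCM + anti-Ptk7 replicate 5 (5.56, the others 5.77 to 5.87) and in complete media + IgG replicate 3 (5.69, the others 5.89 to 6.00).

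In complete media + IgG, Cenpa was highest in replicate 2 (188 CPM, the others 135 to 149) and Mcm6 in replicate 3 (469.8 CPM, the others 435 to 446). In QCM + IgG, Tyms was lowest in replicate 2 (75.9 CPM, the others 86.4 to 89.1). Replicate 5 of SCM + IgG had the highest E2f1 (54.0 CPM, the others 37.4 to 43.6), the highest Aurka (200.7 CPM, the others 147 to 167) and the lowest Ccna2 (319 CPM, the others 372 to 393), and replicate 1 the lowest Uhrf1 (41.2 CPM, the others 59.1 to 69.3). In SCM + anti-Ptk7, Cdt1 was highest in replicate 1 (97.6 CPM, the others 84.8 to 89.5).

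Replicate 1 of Wnt5a + IgG had the highest Ccnd1 (199 CPM, the others 132 to 151) and the highest Kif23 (231 CPM, the others 148 to 169). Mcm5 was highest in replicate 3 (362 CPM, the others 260.2 to 284) and Pcna in replicate 2 (22.3 CPM, the others 11.6 to 15.2). Replicate 1 of Wnt5a + anti-Ptk7, the library with the smallest share of cell cycle counts, had the lowest E2f1 (31.3 CPM, the others 43.5 to 49.8) and the lowest Plk1 (120.3 CPM, the others 169 to 184). The cause of these values was not tested.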

How the results depend on the processing

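Over 7 comparisons of 48 genes, 41 values passed an adjusted p under 0.05. With 1 library left out these were lost in 72 of 492 fits, which touched 17 of the 41, and under the other settings in 31 of 413, which touched 14. All 41 kept their direction. Of the 295 values that did not pass, 19 did without some library and 27 under some other setting. With no fold change cutoff the count of genes past the test was 15 with SCM, 22 with Wnt5a, 1 with anti-Ptk7 in SCM and 3 with it in Wnt5a. At any fold change, QCM had 2 by DESeq2 (beside 1.49% of all genes), 3 with the replicate block (2.78%), 1 in a fit of only the groups compared (1.26%) and 0 to 1 with a library left out. SCM had 9 with no filter, beside 4.52% of all genes. SCM against QCM had 1 by DESeq2 (beside 3.9% of all genes), 4 with the replicate block (7.95%) and 0 to 2 with a library left out. Anti-Ptk7 in SCM had 0 in voom with quantile normalization, with upper-quartile scaling, with library size alone, with no filter, with the length offset and in a fit of only the groups compared, 2 with the replicate block and 0 to 1 with a library left out. With the block Kif11 rose past the threshold (0.34, adjusted p = 0.0143), and 6.78% of all genes passed. Anti-Ptk7 in Wnt5a had 5 by DESeq2 (beside 4.2% of all genes), 5 with the replicate block (4.94%), 1 with library size alone, 0 in a fit of only the groups compared, 1 without replicates 1 and 5 of Wnt5a + anti-Ptk7 and 1 to 4 with a library left out. With the block and all libraries Ccnd1 passed (-0.52, adjusted p = 0.0315). Past the fold change cutoff as well, Wnt5a had 1 gene with library size alone, 1 with the length offset and 0 to 1 with a library left out, and anti-Ptk7 in Wnt5a had 1 without those replicates and 0 to 1 with a library left out. The median difference between the antibody effects was -0.14 with all libraries and -0.032 without these 2, the latter beside -0.017 over all genes. The cause was not tested.

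No label says what a replicate number marks. Deviations of same-numbered libraries had a mean correlation of 0.092 over 90 pairs, 34 of them over 0.1 (all 15 pairs of number 1, with a mean of 0.241, 11 of 15 of number 3 and 8 pairs of the other numbers), beside -0.018 over 450 other pairs, and 16 of 36 libraries correlated best with their own number, a hint of shared variation from the data, not from the design. The 4 genes between SCM and QCM with the replicate block included Plk1 (adjusted p = 0.0187) and Gins2 (0.0449), and the 3 with QCM were Kif20a (0.0196), Mcm4 (0.0242) and Tpx2 (0.0270). Of all genes, 7.95% passed with the block between SCM and QCM and 2.78% with QCM. With the block, 21 genes fell and 1 rose with SCM, and 23 fell and 3 rose with Wnt5a, Ccnd1 among the latter (0.39, adjusted p = 0.0482). The shares of all genes past the test in either direction were 16.4% with SCM and 25.3% with Wnt5a. The unknown strand and annotation of the counts, and exons or sequence shared with other genes limit what single genes can show.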
